A study of Homo sapiens with 10 samples.

Results

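The genes described are 10 Polycomb genes: EZH1, EZH2, EED, SUZ12, JARID2, MTF2 and PHF19 of Polycomb repressive complex 2 (PRC2), and ASXL1, ASXL2 and ASXL3. They were chosen by name, and all 10 were found among the 20037 protein-coding genes that the RefSeq table (GRCh38.p14) places on the autosomes, X and Y. The choice was also made with results in view, because EZH2 and ASXL3 carry high-ranked wild-type WDR5 summits whose nearest knockout summit lies more than 500 bp away. Those values are therefore given as a description of the genes and support nothing. The measurements were ChIP-seq summit positions in HEK293T, a human embryonic kidney line that expresses SV40 T antigen. WDR5 was precipitated from wild-type cells (WT) and from cells with the microprotein EMBOW knocked out (KO). A stable line that expresses EMBOW-FH was precipitated on anti-FLAG beads, and that list is called EMBOW-F. Each group is 1 library, so no comparison has a replicate check. The sources used here do not say whether the KO line is a single clone.

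PRC2 methylates histone H3 at lysine K27, a mark of silenced developmental genes. EZH1 and EZH2 are its alternative catalytic subunits, EED and SUZ12 complete the core, and JARID2, MTF2 and PHF19 are accessory subunits that help to recruit it. ASXL1, ASXL2 and ASXL3 are alternative partners of the deubiquitinase BAP1, which removes ubiquitin from histone H2A in the PR-DUB complex. WDR5 is a scaffold of the COMPASS enzymes, which methylate H3K4 and work in opposition to Polycomb at many promoters. The data below show where WDR5 was called at the genes that encode Polycomb proteins, not where Polycomb proteins bind.

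The promoter sequences of ASXL3 and EZH1 come first because they hold a WDR5 summit of each genotype. They are the 250 bases before the RefSeq start site, 5′ to 3′ on the gene's strand, and capitals run from the summit of one genotype to that of the other. ASXL3 is at chr18:33577969-33578218 on the plus strand, with the KO summit at the first capital, 188 bp before the start, and a WT summit at the last, 153 bp before it. EZH1 is at chr17:42745041-42745290 on the minus strand, with the WT summit at the first capital, 234 bp before the start, and the KO summit at the last, 194 bp before it.
ASXL3: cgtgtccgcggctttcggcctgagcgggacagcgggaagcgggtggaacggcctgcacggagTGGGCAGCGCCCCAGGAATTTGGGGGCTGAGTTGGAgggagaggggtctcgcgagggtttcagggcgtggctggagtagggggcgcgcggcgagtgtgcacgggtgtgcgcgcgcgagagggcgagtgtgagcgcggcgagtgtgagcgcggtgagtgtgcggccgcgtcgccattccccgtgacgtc
EZH1: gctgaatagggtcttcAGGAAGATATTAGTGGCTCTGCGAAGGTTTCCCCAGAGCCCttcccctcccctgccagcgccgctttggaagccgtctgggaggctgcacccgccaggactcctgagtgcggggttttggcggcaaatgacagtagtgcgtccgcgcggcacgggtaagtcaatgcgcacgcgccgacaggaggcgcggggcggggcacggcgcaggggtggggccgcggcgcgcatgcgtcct

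The start of EZH2 is shown because the 3 lists meet around it, and that of EED because it is the least CpG-rich of the windows at which a member's summits were called. EZH2 has 2 listed start sites, and the outer of them, at the 5′ end of the span, is used here. For EZH2 the stretch is chr7:148884272-148884491 on the minus strand, with 200 bases before the start site and 20 from it on. Capitals mark TTTGGCGC, a form of the binding letters of E2F factors, which control genes of cell cycle entry. No summit falls inside it: the WT summit lies 199 bp after the start, the EMBOW-F summit 170 bp after it and the KO summit 317 bp before it. For EED the stretch is chr11:86244503-86244752 on the plus strand, and nothing in it is capitalised.
EZH2: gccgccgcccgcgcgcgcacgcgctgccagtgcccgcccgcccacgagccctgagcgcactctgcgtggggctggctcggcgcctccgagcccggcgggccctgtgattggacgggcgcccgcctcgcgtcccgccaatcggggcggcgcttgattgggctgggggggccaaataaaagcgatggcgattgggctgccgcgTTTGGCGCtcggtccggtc
EED: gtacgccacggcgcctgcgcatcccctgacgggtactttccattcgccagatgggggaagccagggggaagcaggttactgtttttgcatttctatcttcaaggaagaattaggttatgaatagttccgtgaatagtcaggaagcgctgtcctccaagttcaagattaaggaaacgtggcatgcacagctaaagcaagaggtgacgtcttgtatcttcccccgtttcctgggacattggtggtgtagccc

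WDR5 was called within 1 kb of a listed start site of all 10 genes in both genotypes. Counted by the RefSeq start sites, which number 16 over these genes, 10 of 10 genes had a summit within 1 kb of a start in WT and 10 of 10 in KO. Over the 15843 protein-coding genes with a listed start site, 54.6% had one in WT and 58.1% in KO. Counting any listed start favours genes with several. JARID2 and PHF19 were counted only through a start inside the span. The only WT summit that counted for JARID2 was a weak one (−log10 q 3.44, a score explained below). Counted by either end of the gene span within 1 kb, called a gene-end summit, 8 of 10 genes had a summit in WT (exact 95% interval 44.4 to 97.5%) and the same 8 in KO. Over all protein-coding genes the shares were 50.0% in WT, 53.4% in KO and 46.4% in both. JARID2 and PHF19 were outside this count. The highest JARID2 summits lay 1118 bp (WT) and 1204 bp (KO) before its span, just past the 1 kb window. Its lower-scoring pair and the PHF19 summits lay near a listed start site inside the span, more than 1 kb from either end. No member had a summit of any list within 1 kb of its 3′ end. The interval covers counting error only, and these 10 genes were not drawn at random.

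Within the gene span and 10 kb on either side, the 10 genes held 20 WT summits, 17 KO summits and 1 EMBOW-F summit. Every gene held a WT and a KO summit there, as did 63.2% of all protein-coding genes in WT and 67.3% in KO. Of these, 13 WT and 12 KO summits lay within 1 kb of a start site. The whole lists held 17660 WT, 21055 KO and 93143 EMBOW-F summits. The score of a summit is its deposited value, read here as −log10 q, and a rank of 1 is the highest score in a list. Scores and ranks describe a summit within its own list. No genotype difference is measured by them, because the lists differ in length and their read depth is unknown.

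**Figure D1:**
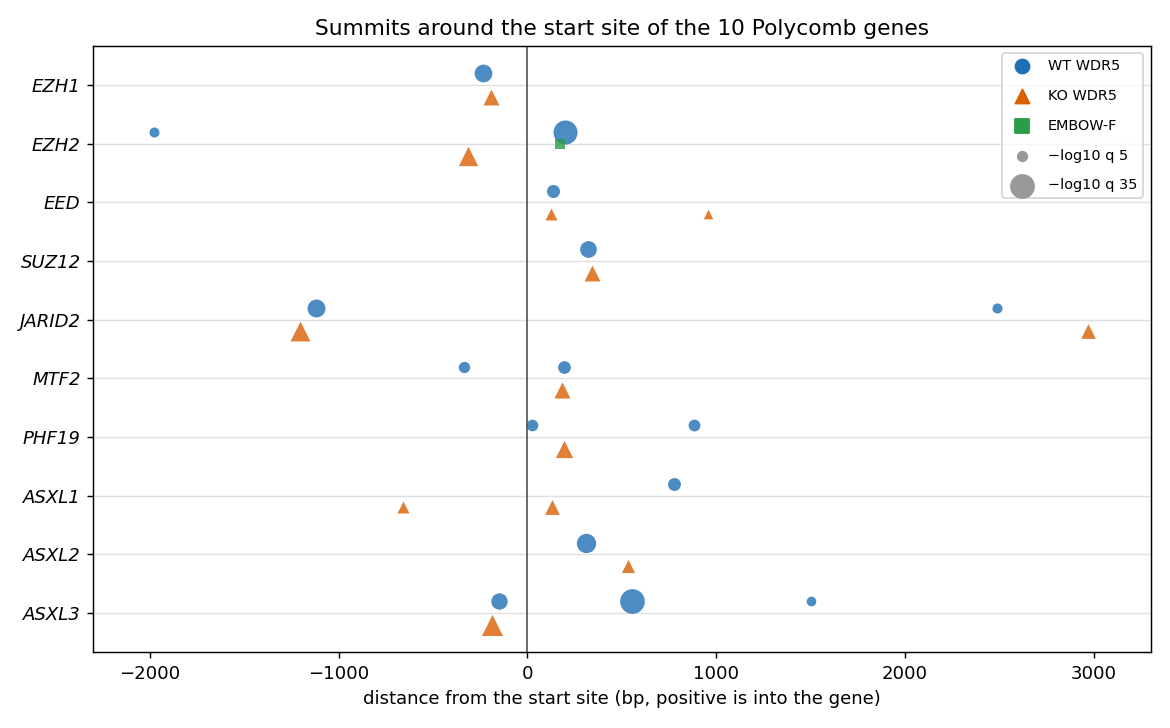
Position of each summit relative to the gene's start (x axis, bp, positive into the gene) for the 10 genes (rows), with marker area growing with −log10 q. The zero is the 5′ end of the RefSeq span, except for PHF19, where it is the start site at 120877188. WT circles and KO triangles lie close together at EZH1, EED and SUZ12 and apart at EZH2 and ASXL1. The 3 summits beyond the 3′ end of SUZ12, 4 deep inside JARID2 and 1 deep inside ASXL2 fall outside the axis.

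Of the catalytic subunits, EZH1 had a single summit in each genotype and EZH2 had its summits on opposite sides of the start. EZH1 lies on chromosome 17 (42700275 to 42745040, minus strand). Its WT summit at 42745274 had a −log10 q of 16.5 (rank 2294) and its KO summit at 42745234 had 12.9 (rank 4698), 40 bp apart. EZH2 lies on chromosome 7 (148807383 to 148884291, minus strand). Its WT summit at 148884092, 199 bp inside the gene, scored 32.7 and ranked 471. The KO summit at 148884608, 317 bp upstream of the gene, scored 20.1 and ranked 2035. The summits were 516 bp apart, just past the 500 bp that counts as a partner, with each within 317 bp of the 5′ end of EZH2.

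A weaker WT summit of EZH2 at 148886267 (−log10 q 3.38, rank 14362) lay inside the long non-coding RNA gene LOC124901767. Its nearest KO summit was 1659 bp away. In the 10 kb around the EZH2 span there was no other KO summit than that at the start.

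The core subunits EED and SUZ12 had near-coincident summits. EED, which binds methylated H3K27 and stimulates the enzyme, lies on chromosome 11 (86244753 to 86287615, plus strand). Its WT summit at 86244886 (−log10 q 7.71, rank 7380) and its KO summit at 86244876 (6.07, rank 11006) lay 10 bp apart. A further KO summit at 86245707 scored 2.84 and lay 954 bp inside the gene, 821 bp from the WT summit. SUZ12, the scaffold of the complex, lies on chromosome 17 (31937007 to 32001038, plus strand). Its WT summit at 31937328 (14.4, rank 3027) and its KO summit at 31937347 (12.8, rank 4789) lay 19 bp apart, 321 and 340 bp inside the gene.

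SUZ12 has a partial copy on the same chromosome, the transcribed pseudogene SUZ12P1 (30709608 to 30792830), which also carried WDR5 summits. The WT summit there at 30709414 scored 9.42 and the KO summit at 30709433 scored 16.7. They were 194 and 175 bp outside the pseudogene's start. The distance between genotypes was thus 19 bp at the gene and at the copy, with the KO summit at the higher coordinate in each. The sources used here do not say how reads that match both places were assigned, and its part in the SUZ12 values was not tested. Beyond the SUZ12 3′ end, 2 WT summits and 1 KO summit lay between 5970 and 6850 bp away. They were near an end of LRRC37B (32007383) and an end of LOC124903972 (32007707). The higher-scoring WT summit there (32007888, 7.36) and the KO summit (32007797, 15.2) lay 91 bp apart.

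Among the accessory subunits, JARID2 had the most summits. JARID2, a Jumonji family protein without demethylase activity, lies on chromosome 6 (15246069 to 15522042, plus strand). Its highest summits lay upstream of the span, at 15244951 in WT (−log10 q 16.9, rank 2188) and 15244865 in KO (21.4, rank 1813), 86 bp apart. Both positions are inside JARID2-DT, a long non-coding RNA gene at 15243923 to 15245374. They lay 1118 and 1204 bp from the JARID2 span, just outside the 1 kb window.

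A further pair of JARID2 summits stood at its other listed start site, 15248855. The WT summit was 301 bp before it (15248554, −log10 q 3.44) and the KO summit 184 bp after it (15249039, 10.4), 485 bp apart and just inside the partner distance. The WT position, but not the KO one, is also inside JARID2-AS1, a long non-coding RNA gene at 15247815 to 15248696. Deep in the span, JARID2 had WT summits at 15261926 (3.26) and 15360312 (2.09) and KO summits at 15400637 (6.13) and 15413225 (3.78). These 4 lay from 12887 to 52913 bp from the nearest summit in the other cells. The gene table gives spans without exons, so whether these positions are exonic or intronic was not resolved.

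MTF2 and PHF19 are Polycomb-like proteins that link PRC2 to CpG-rich DNA. MTF2 lies on chromosome 1 (93079283 to 93139076, plus strand). Its KO summit at 93079464 (−log10 q 13.1, rank 4643) lay 12 bp from a WT summit at 93079476 (7.18, rank 8019). A lower WT summit upstream of the gene, at 93078946 (5.15), was 518 bp from the KO summit. PHF19 lies on chromosome 9 (120855651 to 120904128, minus strand), and its summits clustered at the internal start site 120877188. The KO summit at 120876995 (15.4, rank 3538) stood between WT summits at 120877165 (5.54) and 120876307 (5.79), which were 170 and 688 bp from it. PHF19 thus had 2 called positions in WT and 1 in KO.

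The 3 ASXL genes differed in how their summits were arranged. ASXL1 lies on chromosome 20 (32358331 to 32439319, plus strand). Its WT summit at 32359109 (−log10 q 7.37, rank 7751) was 44 bp after the most downstream of 3 listed start sites, 32359065. Its KO summits stood further upstream, at 32358460 (10.7, rank 6134), 649 bp from the WT summit, and at 32357671 (6.07, rank 11006), 1438 bp from it. ASXL2 lies on chromosome 2 (25733753 to 25878487, minus strand). Its WT summit at 25878178 (20.1, rank 1500) and its KO summit at 25877954 (7.85, rank 8621) lay 224 bp apart, 309 and 533 bp inside the gene. A KO summit near the foot of the list (25834820, rank 19978) lay 43667 bp inside ASXL2, with the nearest WT summit 43358 bp away.

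ASXL3 carried the highest WT score of the 10 genes. It lies on chromosome 18 (33578219 to 33751195, plus strand) and had 3 WT summits against 1 in KO. The highest WT summit at 33578774 (−log10 q 34.6, rank 430) was 555 bp inside the gene and 743 bp from the KO summit. The WT summit in the printed promoter, at 33578066 (13.7, rank 3348), lay 35 bp from the KO summit at 33578031 (24.4, rank 1336). The last WT summit at 33579721 scored 2.93 and lay 1502 bp inside the gene. The upstream position of ASXL3 was thus called in both genotypes, and the positions inside the gene were called in WT.

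By the highest gene-end summit, the WT order was ASXL3, EZH2, ASXL2, EZH1, SUZ12, EED, ASXL1 and MTF2, with −log10 q from 34.6 down to 7.18. In KO it was ASXL3, EZH2, MTF2, EZH1, SUZ12, ASXL1, ASXL2 and EED, from 24.4 down to 6.07. With 1 library per genotype there is no spread to tell neighbours in either order apart. ASXL3 and EZH2 headed both orders, which supports nothing, because they were chosen by their WT rank and by their distance to KO summits. The median over the 8 genes was 15.5 in WT and 12.8 in KO, and over all genes with a gene-end summit it was 9.39 in WT (10011 genes) and 10.5 in KO (10707 genes). Without EZH2 and ASXL3 the median of the other 6 was 11.0 in WT and 11.7 in KO. Of all genes with a gene-end summit, 96.4% scored below ASXL3 and 96.0% below EZH2 in WT. In KO the shares were 88.6% and 82.8%. No difference between the genotypes is read from these shares, since both genes were chosen by their WT rank. EED stood low in both lists, above 39.3% of genes in WT and 22.7% in KO.

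**Figure D2:**
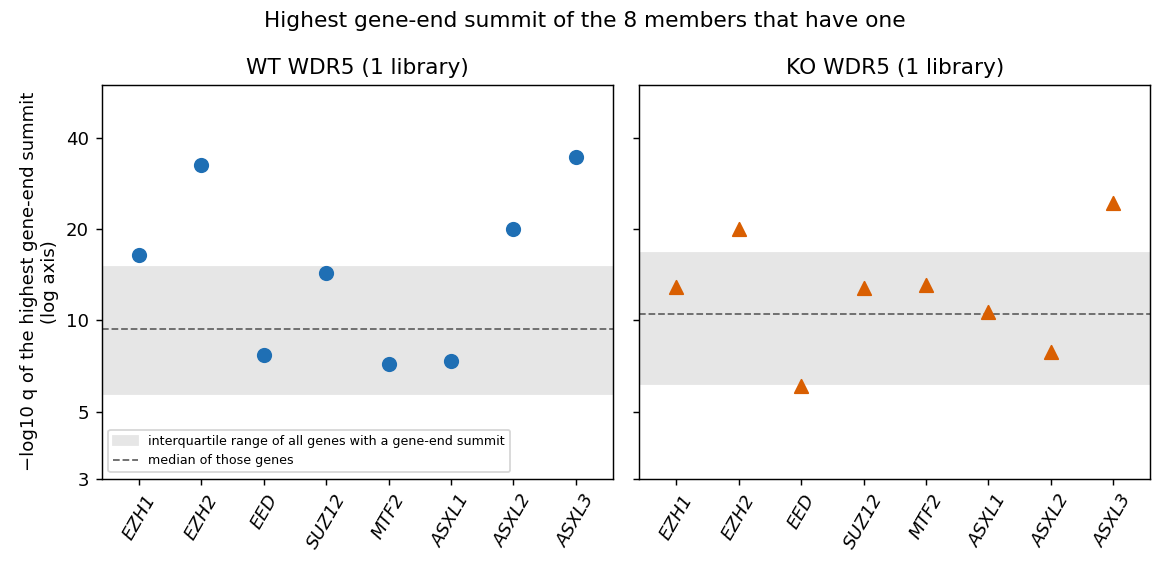
Score (−log10 q, log axis) of the highest gene-end summit of each of the 8 genes that have one, in the WT list (left) and the KO list (right), with 1 library each. The dashed line is the median over all genes with a gene-end summit and the band their interquartile range. EZH2 and ASXL3, which were chosen by their WT rank, stand above the band in both panels, and EZH1 and ASXL2 in the WT panel.

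Positions in the 2 genotypes were compared through the distance from each gene's highest gene-end summit to the nearest summit of the other genotype. In WT the distances were 10 bp at EED, 12 at MTF2, 19 at SUZ12, 40 at EZH1, 224 at ASXL2, 516 at EZH2, 649 at ASXL1 and 743 at ASXL3. Their median was 132 bp, against 78 bp over all genes with a WT gene-end summit. From the KO side the ASXL3 distance was 35 bp and the other 7 were as from WT, with a median of 37.5 bp against 89 bp over all genes. The 8 genes thus fell into 5 with a partner and 3 without in WT, and 6 and 2 in KO. Over all genes with a gene-end summit, 13.0% of the highest WT summits had no KO summit within 500 bp, and 18.8% of the highest KO summits had no WT summit. Nothing is read from the members' counts, since EZH2 and ASXL3 were chosen by this measure.

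Counting every gene-end summit, 4 of 10 WT summits had no KO partner within 500 bp, at EZH2, MTF2, ASXL1 and ASXL3. The same held for 4 of 10 KO summits, at EZH2, EED and ASXL1, which had 2. Over all gene-end summits of protein-coding genes, each counted once, 18.0% of 10831 in WT and 24.9% of 11758 in KO had no partner at that distance. The EZH2 and MTF2 distances of 516 and 518 bp lay just outside the partner distance and the JARID2 distance of 485 bp just inside it. With 1 kb allowed, 0 WT summits and 1 KO summit, that of ASXL1 at 32357671, had no partner. Over all gene-end summits 7.50% in WT and 14.4% in KO had none at 1 kb, and over the highest summit of each gene 6.59% and 12.8%. These counts hold the members' choosing measure too, so nothing is read from them. A change of WDR5 position cannot be read from these distances, as each genotype is 1 library.

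**Figure D3:**
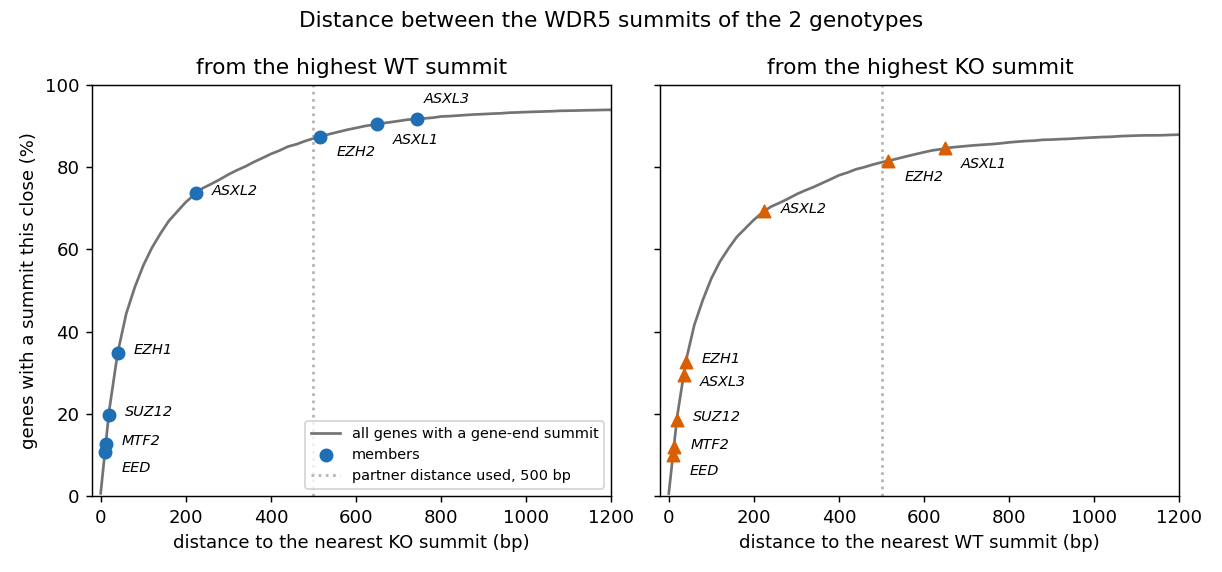
Distance from the highest gene-end summit to the nearest summit of the other genotype (x axis, bp), from WT on the left and from KO on the right. The grey curve is the percentage of all genes with a gene-end summit that have a summit this close, and each of the 8 genes is placed on it at its own distance. EZH2 and ASXL1 lie past the dotted 500 bp line on both sides, and ASXL3 on the WT side.

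Tagged EMBOW was called at 1 of the 10 genes, EZH2. Over all protein-coding genes 1.40% had an EMBOW-F gene-end summit (281 genes), 1.09% had one near a listed start site, and 6.67% had one within the span or 10 kb of it. The EZH2 summit at 148884121 scored 2.39 and ranked 70080, below the median of 3.25 for EMBOW-F, and it is lost when a −log10 q of at least 5 is asked, which 0.190% of all genes meet. The members' WDR5 gene-end counts stay at 8 in each genotype at that score, against 39.7% of all genes in WT and 44.5% in KO. The EMBOW-F summit of EZH2 lay 29 bp from the WT WDR5 summit and 487 bp from the KO WDR5 summit. Of the 281 genes, 18 (6.41%) had a WT summit within 500 bp of the EMBOW-F summit and 19 (6.76%) a KO summit. Among those 18 genes the median distance was 62 bp, and 4 (LIPT2, E2F2, FEM1C and TASOR2, named because they are so few) were closer than EZH2. Among the 19 genes with a KO summit that close, EZH2 was the farthest. Seen from WDR5, 0.180% of genes with a WT gene-end summit and 0.168% of those with a KO one had an EMBOW-F summit within 500 bp of the highest. For the other 9 genes the nearest EMBOW-F summit lay from 60999 bp (ASXL3) to 9217106 bp (EZH1) from a start site.

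None of the 10 genes stood in the authors' deposited table of new WDR5 targets dependent on EMBOW. No transcript of that table overlapped a member's span or the 10 kb around it, and the nearest listed 5′ end was 53650 bp from a start site, at EZH1, and 79024 bp at EZH2. Of all protein-coding genes, 10.7% had a listed 5′ end within 1 kb of an end or start site. The sources used here do not give the rule behind the table.

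CpG content was counted in the RefSeq promoter windows of the 10 genes and of all protein-coding genes. Windows of 250 bases before to 50 from the start on had a median of 29 CpG where a WT summit lay within 1 kb (11060 windows) and of 8 where none did (11139 windows). The richest window of each gene held 48 CpG at PHF19, 46 at EZH2, 40 at SUZ12 and JARID2, 39 at ASXL2, 38 at ASXL3, 32 at ASXL1, 30 at EZH1, 28 at MTF2 and 16 at EED. Of these richest windows, that of EED is under the all-window median of 21, and those of EED and MTF2 are under the median of windows with a WT summit. Taking the richest window favours genes with several listed start sites. The alternative ASXL2 start inside the gene, with 2 CpG, had its nearest WT summit 83487 bp away.

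Motif letters were searched on both strands of these windows. The E2F letters TTTCCCGC occurred at SUZ12, MTF2 and PHF19, in 3 of the 16 member windows. Over the 22199 windows of protein-coding genes the share was 1.99% (2.91% of those with a WT summit). The form TTTGGCGC, in capitals in the EZH2 sequence, occurred at EZH2, in 1 of the 16 member windows, and in 0.815% of windows (1.17%). Stretches around the matches are shown to place them, with the E2F letters in capitals, for SUZ12 (chr17:31936802-31936841, plus strand), MTF2 (chr1:93079272-93079307, plus strand) and PHF19 (chr9:120877317-120877356, minus strand). The match began 189 bp before the start at SUZ12, 5 bp after it at MTF2 and 152 bp before it at PHF19, and reads on the opposite strand at MTF2 and PHF19.
SUZ12: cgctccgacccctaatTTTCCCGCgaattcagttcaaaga
MTF2: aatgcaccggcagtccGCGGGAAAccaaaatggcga
PHF19: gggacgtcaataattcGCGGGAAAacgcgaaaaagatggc

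The GC box letters GGGCGG occurred in windows of 7 members (EZH1, EZH2, SUZ12, JARID2, PHF19, ASXL1 and ASXL2) and in 10 of their 16 windows. They occurred in 56.3% of all windows and in 76.6% of those with a WT summit. The TATA letters TATAAA occurred at JARID2, in 1 of the 16 member windows. Over all windows the share was 9.47% (4.28% of those with a WT summit). The E-box CACGTG (8.34% of all windows and 10.9% of those with a WT summit), the ETS letters CCGGAAGT (5.34% and 8.68%), the NRF1 motif (1.5% and 2.36%) and the YY1 motif (1.68% and 2.76%) occurred in none of the 16 member windows. A match of letters is not a measured binding site, and their absence from these windows says nothing of the factor.

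Gene-end summits were also counted at other Polycomb genes. Of 42 genes in 4 groups, 31 had a WT gene-end summit (73.8%, exact 95% interval 58.0 to 86.1%) and 34 a KO one (81.0%, 65.9 to 91.4%), with 30 marked in both and 0 with an EMBOW-F gene-end summit. The shares over all protein-coding genes were 50.0% in WT and 53.4% in KO, and the difference from the 10 members was not tested. The PRC2 partners stood at 5 of 8 in each genotype, and RBBP4, a histone chaperone of the complex, had the highest score (17.8 in WT, 44.2 in KO). The unmarked partners were AEBP2, PHF1 and EZHIP. AEBP2 had a summit within 1 kb of a listed start site in both genotypes and PHF1 in WT. The PR-DUB genes stood at 6 of 8 in WT and 8 of 8 in KO. Their highest summits were those of FOXK1 in WT (29.2) and FOXK2 in KO (29.9), forkhead factors that bind BAP1. BAP1 itself scored 7.1 in WT and 14.3 in KO, with its summits 86 bp apart.

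PRC1, which adds ubiquitin to histone H2A, stood at 19 of 24 in WT and 20 of 24 in KO. Its highest summit in both lists was that of CBX6, a chromodomain protein, with a −log10 q of 97.1 (rank 129) in WT and 146 (rank 118) in KO and 2 bp between them. The PRC1 genes marked in neither genotype were PCGF5, KDM2B and BCORL1. Each had a summit within 1 kb of a listed start site in both genotypes. Of the H3K27 demethylases, KDM6A had a gene-end summit in both genotypes (19.1 and 18.8) and KDM6B in neither. A KO summit lay 1046 bp from an end of KDM6B, just outside the window.

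Single-genotype marks in the 42 genes numbered 4 in KO and 1 in WT. Over all protein-coding genes 53.4% were marked in KO, 50.0% in WT and 46.4% in both. Marks in KO alone were thus the more common there too, and the KO list is the longer. HCFC1, MBD5, PCGF3 and BCOR were marked in KO, and L3MBTL2 in WT. HCFC1 and BCOR had WT summits 1060 and 1043 bp from an end, just outside the window, and the BCOR one was within 455 bp of its KO summit. The MBD5 KO summit (5.48) lay 175339 bp from a WT summit, and the PCGF3 KO summit (4.07) 6514 bp. The L3MBTL2 WT summit (3.94) lay 8073 bp from a KO summit. Over all protein-coding genes, 10.5% were marked in a single genotype, and none of the 10 members was. Nothing is read from that, as 10 genes are few and the count depends on the window. With a 500 bp gene-end window, 7 members were marked in each genotype and 6 in both. In the authors' deposited table, a 5′ end lay within 1 kb of an end or start site of BAP1, HCFC1, MBD5 and KDM6B. The table carries no gene symbols, so a transcript of a neighbouring gene can count there.

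**Figure D4:**
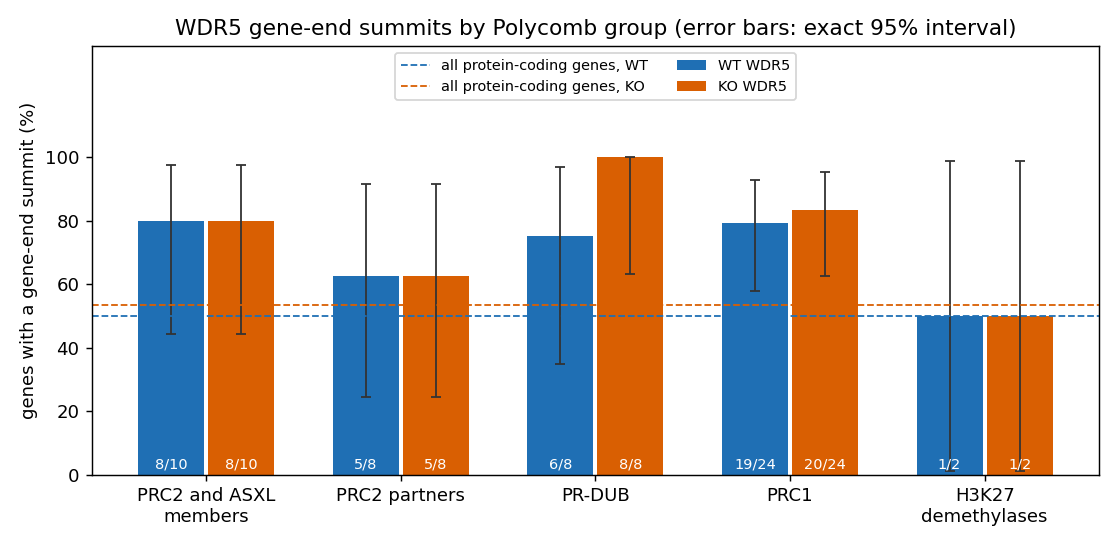
Percentage of genes with a WDR5 gene-end summit (y axis) in WT and KO, 1 library each, for the 10 members and 4 groups of other Polycomb genes, with counts at the foot of the bars. Error bars are exact 95% intervals for counting error, and dashed lines the shares over all protein-coding genes. The members reach 80.0% in both genotypes. The intervals of the members, the PRC2 partners and the demethylases include the dashed lines. So does the WT interval of PR-DUB (34.9 to 96.8%), but not its KO interval (63.1 to 100%). Both PRC1 intervals lie above the lines (57.8 to 92.9% in WT, 62.6 to 95.3% in KO). The groups were listed by name, not drawn at random, so the intervals are not a test.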

How the data were processed

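The data were 3 summit lists and a table of 18665 transcripts. The submitters' processing notes name build hg38, MACS2 (2.2.7.1), deepTools (3.5.1) and Bowtie2 (2.4.5), without roles. The deposited scores were read as −log10 q per summit, because the lowest lay at 1.30 or just above, which is a q of 0.05. The labels list input libraries for WDR5 and for FLAG. The sources used here do not give the depth, any pooling, or which input the peak caller used. The EMBOW-F list was matched to the only FLAG precipitation in the labels. The transcript table's deposited columns beyond position, strand and name (its score is always 0) were not used. H3K4me3 libraries were not analysed here.

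Summits at most 500 bp apart were partners, and summits within 1 kb of a RefSeq span end were gene-end summits. Ranks give tied scores the better rank. Start sites and sequences are from RefSeq windows (GRCh38.p14), which matched all 10 members and 36 of the 42 other Polycomb genes. All 10 members were named. Of the other Polycomb genes, the highest-scoring of each group, those marked in a single genotype and those with EMBOW-F were named. BAP1, the unmarked PRC2 partners, PRC1 genes and demethylase, and LIPT2, FEM1C, TASOR2 and E2F2 were added after their values were seen. Members and lists were chosen with earlier results of these data known. No tests were made, since each group is 1 library. Work was done in Python 3.11.15 with scipy 1.17.1, pandas 2.3.3, numpy 2.4.6 and, for figures, matplotlib 3.10.9. The distance steps recovered all planted summits on simulated data.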

Additional observations from a re-analysis of the deposited data

How the results depend on the processing

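Of 54 alternative values for the 10 counts described, 47 stayed within 1.5 times and 7 did not. Members with a gene-end summit numbered from 7 to 10 in each genotype over the alternatives, and those marked in both from 6 to 10. The WT summits without a KO partner went from 4 to 2 with a 500 bp gene-end window and to 0 with a partner distance of 1 kb or 5 kb. The KO summits without a WT partner went from 4 to 2 with the 500 bp window, to 1 at 1 kb and to 0 at 5 kb. The EMBOW-F mark at EZH2 went from 1 to 0 at a −log10 q of at least 5. Depth is unknown, so a missing summit is not evidence of missing WDR5. No paired analysis was possible because each group is 1 library.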

Other observations

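Genes with a like pattern to EZH2 and ASXL3 were listed by WT rank, among the 1302 genes whose highest WT gene-end summit had no KO summit within 500 bp. Of these genes, 9 ranked above EZH2, ASXL3 among them, and 3 above ASXL3. The counts are of genes, and neighbouring genes can share a summit. Nothing is read from them, since EZH2 and ASXL3 were chosen by this rank and distance. The 5 nearest to EZH2 (rank 471) were HES6 (rank 468), HNRNPU and LOC124904588 (rank 466), and MORC2 and TUG1 (rank 436). Their nearest KO summits lay 941 bp away at HES6, 714 bp at HNRNPU and LOC124904588, and 525 bp at MORC2 and TUG1. The 5 nearest to ASXL3 (rank 430) were HOXA5 (rank 424, 717 bp) and the same pairs MORC2 with TUG1 and HNRNPU with LOC124904588. The members of each pair share their WT rank and KO distance. All of these distances were under 1 kb, as were those of EZH2 and ASXL3.

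The position of the highest summit within 1 kb of a listed start site was compared with that over all genes, without a test. In WT it was upstream of the start at 2 of 10 members and at 25.5% of 8650 genes. The median position was 196 bp into the gene for the members (quartiles 66.25 and 318 bp). For all genes it was 166 bp (quartiles -28 and 295 bp). The members ranged from -301 to 881 bp and all genes from -999 to 998 bp. In KO it was upstream at 3 of 10 members and at 26.1% of 9211 genes. The medians were 152 bp for the members (quartiles -112 and 190.75 bp) and 168 bp for all (quartiles -46.5 and 294 bp). The members ranged from -317 to 533 bp and all genes from -997 to 993 bp.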
